A study of Homo sapiens with 6 samples.

Results

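The genes described here are 10 imprinted genes: H19, IGF2, KCNQ1OT1, CDKN1C, PEG3, PEG10, SNRPN, MEST, MEG3 and DLK1. They were chosen by name and all 10 were found among the 57820 genes listed for each sample. RNA-seq covered 3 WT and 3 ARID1A-KO samples of AID-DIvA cells, numbered 3 to 5 in each genotype and all untreated. AID-DIvA is a derivative of the U2OS osteosarcoma line with an integrated, inducible AsiSI nuclease, which both genotypes carry and which was not induced. The knockout was made with Cas9 and crRNAs against ARID1A, a subunit of the SWI/SNF chromatin remodeling complex, and cells were grown from established clones. Which clone went into the libraries is not given in the sources used here, so all 3 ARID1A-KO samples may stem from 1 clone, and knockout and clone cannot be told apart. The paper describes the data of its RNA-seq figure as 3 independent experiments (biological replicates), without saying how samples 3 to 5 were grown. With 1 clone possible, p-values measure only the spread between these samples.

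An imprinted gene is expressed mainly from the copy inherited from 1 parent. The mark is DNA methylation laid down in the egg or the sperm at an imprinting control region, which then governs a cluster of neighbouring genes. H19 and IGF2 are expressed from opposite parental copies, with CTCF bound at the unmethylated control region between them. Further along 11p15.5, the long noncoding RNA KCNQ1OT1 is made from the paternal copy and silences CDKN1C and its neighbours on that copy. Imprinting is often disturbed in tumours, and gain of IGF2 expression is a known feature of several of them. The counts used here add up both parental copies, so expression from each copy was not measured.

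Promoter sequences could be matched in RefSeq (GRCh38.p14) for H19, MEG3, SNRPN and MEST. Windows cover 250 bases before and 50 after the transcription start site, and where a gene has several the one with the most CpG dinucleotides was taken. They are shown for the gene with the largest rise (H19, minus strand, chr11:2001217-2001516), a gene with no call (SNRPN, plus strand, chr15:24954737-24955036) and a gene with hardly any counts (MEST, plus strand, chr7:130491835-130492134). Capitals mark TGCCGC or its reverse complement GCGGCA, the letters that the imprint-protecting factor ZFP57 recognizes when they are methylated.
H19 promoter: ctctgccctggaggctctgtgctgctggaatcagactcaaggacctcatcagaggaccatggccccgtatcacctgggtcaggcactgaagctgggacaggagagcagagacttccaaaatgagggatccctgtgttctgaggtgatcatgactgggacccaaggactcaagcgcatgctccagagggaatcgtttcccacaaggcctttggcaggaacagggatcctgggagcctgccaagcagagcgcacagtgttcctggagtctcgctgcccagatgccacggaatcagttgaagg
SNRPN promoter: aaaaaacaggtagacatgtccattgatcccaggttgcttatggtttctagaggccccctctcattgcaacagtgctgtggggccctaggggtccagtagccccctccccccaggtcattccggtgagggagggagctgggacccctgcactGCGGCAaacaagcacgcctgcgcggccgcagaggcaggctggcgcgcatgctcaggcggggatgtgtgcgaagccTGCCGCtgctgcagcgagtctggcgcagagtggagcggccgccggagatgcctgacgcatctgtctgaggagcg
MEST promoter: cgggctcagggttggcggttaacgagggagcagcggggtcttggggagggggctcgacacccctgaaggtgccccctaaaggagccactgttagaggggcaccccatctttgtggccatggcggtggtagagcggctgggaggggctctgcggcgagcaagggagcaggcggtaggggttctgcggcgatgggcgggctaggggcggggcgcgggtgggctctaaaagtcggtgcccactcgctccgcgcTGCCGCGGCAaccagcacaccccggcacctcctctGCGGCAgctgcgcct

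The window of H19 holds 6 CpG dinucleotides, that of MEG3 19, that of SNRPN 18 and that of MEST 25. Over all 35116 promoter windows of this length in the RefSeq table, the median was 14. The searched letters were found at 0 places in the H19 window, 1 in the MEG3 window, 2 in the SNRPN window and 3 in the MEST window, where 2 of the 3 overlap each other. Of all windows, 16.7% hold them at least at 1 place and 2.75% at 2 or more. The windows of MEG3, SNRPN and MEST were picked for most CpG out of 3, 4 and 5, and the searched letters contain a CpG. Both counts of these 3 genes are thus not like for like with those of all windows. These matches describe the sequence only, since neither methylation nor binding was measured in these libraries.

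H19, MEST, IGF2 and MEG3 also contain microRNA genes. For H19 and MEST, RefSeq places the mature sequences inside the gene bodies. Those of H19 are shown because the RNA that contains them rose most, with the seed (bases 2 to 8) in capitals. The libraries do not measure mature microRNAs.
hsa-miR-675-5p: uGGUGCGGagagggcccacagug
hsa-miR-675-3p: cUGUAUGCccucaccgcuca

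Between 54512105 and 84088708 reverse-stranded counts were assigned to genes in a sample. ARID1A itself had 173 ± 6.67 CPM (counts scaled to library size after TMM normalization) in WT and 25.9 ± 1.38 CPM (SD, n = 3 each) in ARID1A-KO cells. Of 19599 genes with enough counts for a test, 36.2% passed the quasi-likelihood test of edgeR at an adjusted p under 0.05 (Benjamini-Hochberg). With ARID1A lost, 17.8% were higher and 18.4% lower. The log2 fold changes of all tested genes had a median of 0.0066. A gene past this threshold is called higher or lower below, and a log2 fold change is positive where ARID1A-KO exceeds WT. Among 7 markers of the osteoblast lineage and of mesenchymal cells, VIM, SPARC, COL1A1, RUNX2 and ALPL were detected. SP7 had at most 4 counts in any sample and COL1A2 at most 20. Of the 6 tested, VIM was higher and ALPL, COL1A1 and SPARC were lower. Summed CPM of these markers went from 3392 to 3801 in WT and from 4635 to 5222 in ARID1A-KO samples. VIM carried this rise, with a mean of 2354 CPM in WT and 4224 CPM in ARID1A-KO samples. SPARC fell from 757 to 410 CPM and COL1A1 from 447 to 322 CPM, and the median log2 fold change of the 6 tested markers was -0.46. Markers of epithelial, blood and endothelial cells summed to 7.33 to 10.4 CPM in WT and 8.19 to 8.64 CPM in ARID1A-KO samples. For these, 7 of 8 listed genes were found, and CD3E had 0 or 1 counts. Of the 4 tested, EPCAM was higher and CDH1 and PTPRC were lower, and their part in the results below was not tested. As in any bulk RNA sample, a change in the share of expressing cells and a change in the RNA of each cell cannot be told apart.

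Of the 10 imprinted genes, 7 had enough counts for a test. H19, IGF2, KCNQ1OT1, PEG10, CDKN1C and PEG3 rose in ARID1A-KO cells and SNRPN passed in neither direction. None of the 7 was lower. The 6 called genes are 6 of 7 tested, where 17.8% of all tested genes were higher, and they are also the 6 members in which each ARID1A-KO sample lay above every WT sample, as did 24.8% of all tested genes. Both kinds of imprinted gene are among them, H19 and CDKN1C being known as maternally expressed and IGF2, KCNQ1OT1, PEG3 and PEG10 as paternally expressed. Their log2 fold changes ran from 0.50 to 2.45, and the median over the 7 tested genes was 0.79. A gene could pass the filter on low counts through ARID1A-KO samples alone, so these shares describe the tested genes and not all 10. With 10 counts required in every sample, 7 of the 10 were still tested and 6 called higher.

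**Figure D1:**
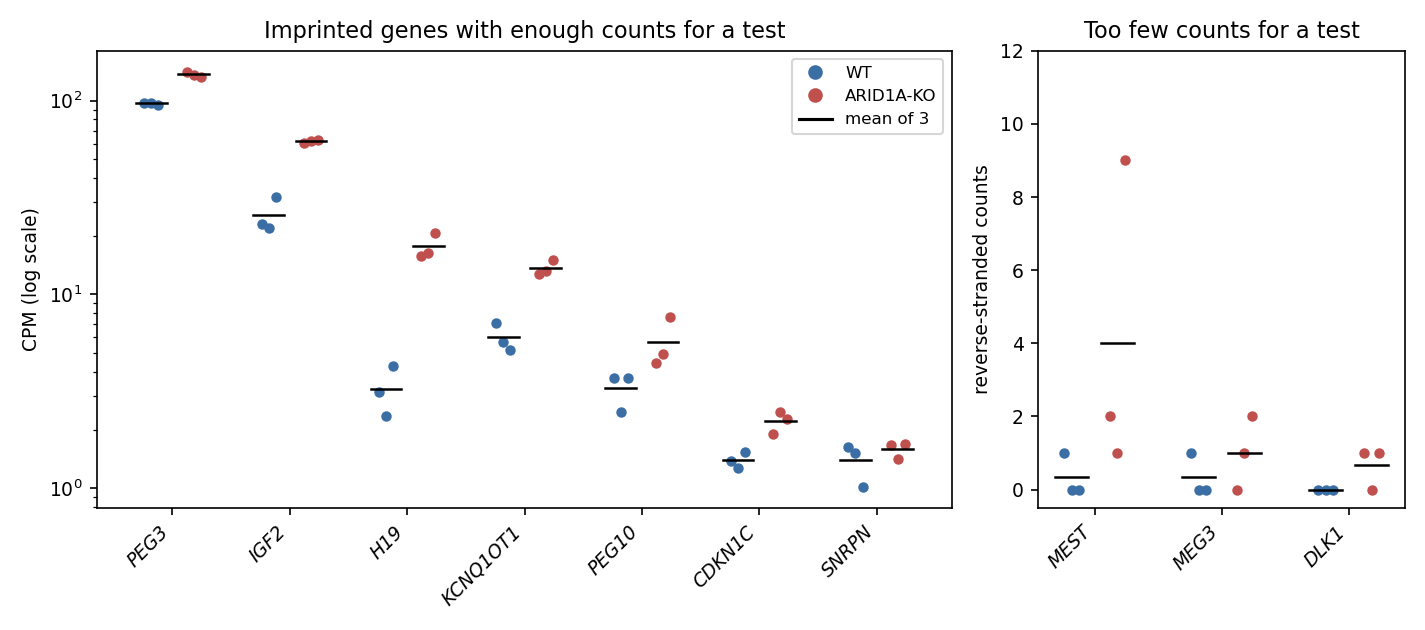
Levels of the 10 imprinted genes in each sample, with WT in blue, ARID1A-KO in red and a line at the mean of 3 samples. The left panel gives CPM on a log scale and the right panel raw reverse-stranded counts of the 3 genes too low for a test; the genotypes overlap for SNRPN but not for the other 6 genes on the left.

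H19 showed the largest change. It encodes a long noncoding RNA that is abundant in the fetus and mostly silent after birth. H19 (ENSG00000130600.11) lies on the minus strand of chromosome 11 from 2016406 to 2022700 in GRCh37. Its reverse-stranded counts were 209, 167 and 248 in WT replicates 3, 4 and 5 and 1074, 904 and 1834 in ARID1A-KO replicates 3, 4 and 5. In CPM these were 3.13, 2.35 and 4.26 against 15.8, 16.4 and 20.8, so the lowest ARID1A-KO sample stood far above the highest WT sample. Mean levels were 3.25 ± 0.96 and 17.7 ± 2.75 CPM (SD, n = 3 each), a 5.47-fold rise with a log2 fold change of 2.45 (SE 0.20, 95% interval 2.0 to 2.91, edgeR adjusted p = 3.01e-05).

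IGF2, the growth factor insulin-like growth factor 2, is made from the other parental copy of the same domain. IGF2 (ENSG00000167244.13) lies on the minus strand of chromosome 11 from 2150342 to 2170833, with its start site 148.133 kb from that of H19. WT samples had 1541, 1567 and 1847 counts and ARID1A-KO samples 4121, 3418 and 5534. In CPM they had 23.1, 22.1 and 31.7 against 60.5, 62.2 and 62.9. The 3 ARID1A-KO samples lay close together, whereas WT replicate 5 stood above the other WT samples. From 25.6 ± 5.31 to 61.9 ± 1.21 CPM, IGF2 rose 2.42-fold with a log2 fold change of 1.27 (SE 0.12, 95% interval 0.99 to 1.55, edgeR adjusted p = 7.42e-05). The intervals of H19 and IGF2 do not overlap, but the difference between their fold changes was not tested.

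IGF2-AS, an antisense transcript over IGF2, is the third gene of this domain on the list. It had 7, 3 and 3 counts in WT and 24, 19 and 31 in ARID1A-KO samples, few but without overlap. At such counts it could pass the filter only through the ARID1A-KO samples, and it drops out where 10 counts are required in every sample. Its log2 fold change was 2.37 (SE 0.37, edgeR adjusted p = 0.00108). INS-IGF2, a read-through gene on the strand of IGF2, was listed with 0 counts in all 6 samples.

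The KCNQ1OT1 domain of 11p15.5 moved the same way. KCNQ1OT1 (ENSG00000269821.1, minus strand of chromosome 11 from 2629558 to 2721224) is antisense to KCNQ1. Its counts were 477, 404 and 302 in WT and 873, 730 and 1318 in ARID1A-KO samples, or 7.15, 5.69 and 5.19 against 12.8, 13.3 and 14.98 CPM. The lowest ARID1A-KO sample thus stood well above the highest WT sample. KCNQ1OT1 rose 2.28-fold, from 6.01 ± 1.02 to 13.7 ± 1.13 CPM (SD, n = 3 each), with a log2 fold change of 1.19 (SE 0.13, edgeR adjusted p = 0.000157). KCNQ1, whose gene body spans KCNQ1OT1 on the opposite strand, had 2 to 7 counts per sample and was not tested.

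CDKN1C encodes the cyclin-dependent kinase inhibitor p57, and its gene (ENSG00000129757.8, minus strand of chromosome 11 from 2904443 to 2907111) starts 185.887 kb from KCNQ1OT1. WT samples had 92, 90 and 89 counts and ARID1A-KO samples 130, 136 and 201. Their CPM values were 1.38, 1.27 and 1.53 against 1.91, 2.47 and 2.28, close to each other but without overlap. The rise was 1.60-fold, from 1.39 ± 0.13 to 2.22 ± 0.29 CPM, with a log2 fold change of 0.68 (SE 0.16, edgeR adjusted p = 0.011). Without ARID1A-KO replicate 4, the sample with the highest CDKN1C, it was 0.60 and the adjusted p 0.0519, which ended the call. KCNQ1OT1, known to silence CDKN1C on the copy that makes it, and CDKN1C were thus both higher in ARID1A-KO cells.

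PHLDA2, a growth-restraining gene of the placenta, and SLC22A18, a transporter gene, belong to the same domain. PHLDA2 went from 9.88 to 24.2 CPM with a log2 fold change of 1.30 (edgeR adjusted p = 0.000112) and SLC22A18 from 6.68 to 10.02 CPM with one of 0.59 (adjusted p = 0.0104). KCNQ1DN and SLC22A18AS had at most 18 counts in a sample and were not tested. Taking both domains of 11p15.5, 10 imprinted genes were listed and 7 tested. All 7 were called higher, where 17.8% of all tested genes were. Their median log2 fold change was 1.27, against 0.0066 over all tested genes. IGF2-AS is 1 of the 7 and was tested only through the ARID1A-KO samples in which it is high, so its call lends nothing to this share. The 7 fold changes are not independent of each other, since the genes lie within 1 Mb and those of a domain share a control region.

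Genes of 11p15.5 that are on no imprinted list were higher as well. Within 1 Mb of the start of H19, 14 such genes were tested, 8 of them higher and 0 lower, with a median of 0.73 on the log2 scale. MRPL23, the tested gene next to H19 on its other side from IGF2, had 0.86, and CD81 and TSSC4, between IGF2 and KCNQ1OT1, had 1.0 and 0.86. These 3 genes were picked by their position after the values were seen. Within 5 Mb of H19, 104 such genes had a median of 0.24, and 35.6% of them were higher and 4.81% lower.

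The imprinted genes were therefore fitted again with the median change of their neighbours within 1 Mb, outside the imprinted lists, taken off. This offset was chosen after seeing the data. H19 then had a log2 fold change of 1.72 (edgeR adjusted p = 0.000255) and IGF2 one of 0.59 (adjusted p = 0.00593), so both were above the median change of the genes around them. The offset is a fixed number and leaves out the spread of these genes, which around H19 ran from 0.30 to 0.98 between quartiles. MUC5AC, a mucin gene within 1 Mb of H19 that was singled out after its value was seen, had 4.71, more than H19 itself. KCNQ1OT1 had 0.38 (adjusted p = 0.0504) and CDKN1C 0.12 (adjusted p = 0.595), and their calls were lost. PHLDA2 kept 0.75 (adjusted p = 0.00292), whereas SLC22A18 had 0.04 (adjusted p = 0.868). With the median of all tested genes within 5 Mb taken off instead, H19 had 2.19, IGF2 1.01 and KCNQ1OT1 0.93 and all 3 passed the test, while CDKN1C had 0.42 (adjusted p = 0.0815).

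**Figure D2:**
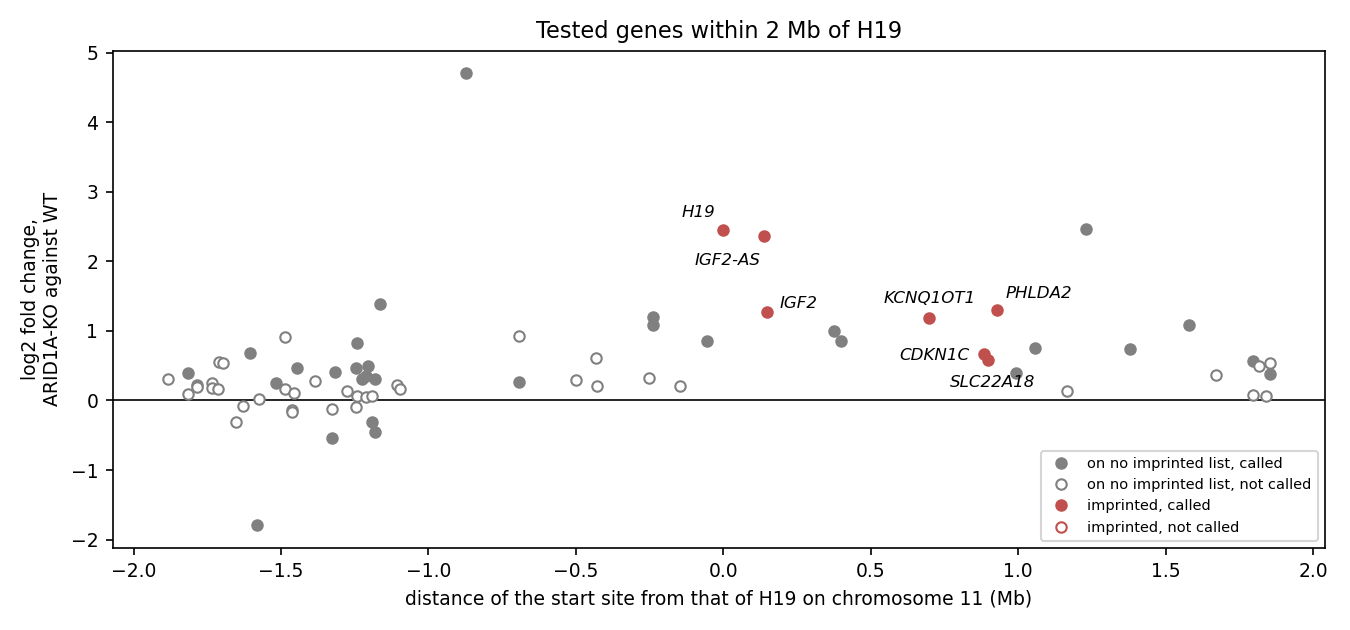
Log2 fold changes of all tested genes within 2 Mb of H19, against the distance of their start sites from that of H19 in Mb, with imprinted genes in red, other genes in grey and open circles where the adjusted p was 0.05 or more. All 7 tested imprinted genes lie above 0.5, and the 14 other genes within 1 Mb all lie above 0, with a median of 0.73.

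PEG3 was the most abundant of the 10 genes. It encodes a zinc finger protein and lies on chromosome 19 (ENSG00000198300.8, minus strand, 57321445 to 57352096), away from the 11p15.5 genes. Its counts were 6519, 6892 and 5551 in WT and 9629, 7420 and 11720 in ARID1A-KO samples, and its CPM 97.7, 97.1 and 95.4 against 141, 135 and 133. The samples of each genotype lay close together, so a modest change stood far outside their spread. PEG3 rose 1.41-fold, from 96.7 ± 1.21 to 137 ± 4.34 CPM (SD, n = 3 each), with a log2 fold change of 0.50 (SE 0.06, edgeR adjusted p = 0.000158). Of 54 tested genes within 1 Mb that are on no imprinted list, 15 were higher and 2 lower, with a median of 0.18. After subtraction of this median, PEG3 had 0.32 (adjusted p = 0.00238), which moved the value by more than 1.5 times but kept the call.

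ZIM2 and MIMT1 share the PEG3 domain. ZIM2, which overlaps PEG3 on the same strand, had 11, 8 and 4 counts in WT and 11, 13 and 25 in ARID1A-KO samples, a log2 fold change of 0.96 that did not pass the test (edgeR adjusted p = 0.089). It was 1.71 and passed with unstranded counts (adjusted p = 0.00233), since its forward-strand counts, 13, 18 and 9 in WT and 48, 37 and 76 in ARID1A-KO samples, exceeded its reverse-stranded ones in each sample. MIMT1 had 0.66 (adjusted p = 0.0605), passed the test in 2 of 16 alternatives and had 0.40 when ARID1A-KO replicate 5 was left out. Reads in exons common to PEG3 and ZIM2 cannot be assigned to either gene, and with PEG3 at far higher counts this bears on ZIM2 more than on PEG3.

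PEG10, a gene derived from a retrotransposon and active in the placenta and in several cancers, lies on chromosome 7 (ENSG00000242265.1, plus strand, 94285637 to 94299007). It had 246, 176 and 215 counts in WT and 303, 271 and 672 in ARID1A-KO samples. Its CPM values were 3.69, 2.48 and 3.69 against 4.45, 4.93 and 7.64, with ARID1A-KO replicate 5 well above the other 5 samples. The log2 fold change was 0.79 (SE 0.23, edgeR adjusted p = 0.025), a 1.73-fold rise from 3.29 ± 0.70 to 5.67 ± 1.72 CPM. This call rested on single samples, since the adjusted p was 0.0676 when ARID1A-KO replicate 5 was left out, where the log2 fold change was 0.52, and 0.0592 when WT replicate 4 was, where it was 0.63. SGCE, which starts next to PEG10 on the opposite strand, had -0.25 (adjusted p = 0.0699) and PPP1R9A -0.15 (adjusted p = 0.125), neither of them called, although SGCE passed the test in 6 of 16 alternatives.

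SNRPN was the tested gene of the 10 without a call. It encodes the small nuclear ribonucleoprotein SmN and lies at the imprinting control region of 15q11 (ENSG00000128739.16, plus strand of chromosome 15, 25068794 to 25223870). Counts were 109, 108 and 59 in WT and 114, 78 and 148 in ARID1A-KO samples, and CPM 1.63, 1.52 and 1.01 against 1.67, 1.42 and 1.68. The genotypes overlapped, and WT replicate 5 was the lowest sample. Its log2 fold change was 0.19 (SE 0.20, edgeR adjusted p = 0.49), with a 95% interval from -0.26 to 0.65 that leaves room for a rise of the size seen for PEG3. SNURF and SNHG14 lie on the same strand and overlap SNRPN, and SNURF had a log2 fold change of 0.16 (adjusted p = 0.673). SNRPN is also close in sequence to SNRPB, so the assignment of reads to SNRPN is uncertain.

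More abundant genes of 15q11 give narrower intervals. SNHG14, the long transcript that hosts the small nucleolar RNAs of the region, had a mean of 49.9 CPM in WT and of 51.5 CPM with ARID1A lost, a log2 fold change of 0.04 with a 95% interval from -0.08 to 0.17. NDN, a gene lost in Prader-Willi syndrome, had -0.02 (interval -0.17 to 0.13), and MKRN3 0.07 (interval -0.14 to 0.27). UBE3A, the ubiquitin ligase gene of Angelman syndrome, had -0.16 (edgeR adjusted p = 0.0586). It passed the test in 3 of 16 alternatives, with -0.30 (adjusted p = 0.00367) where the neighbours' median within 1 Mb was taken off. For these 4 genes the intervals exclude a log2 fold change of 0.50 in either direction. SNHG14 reached 0.28 and passed the test with an offset on exonic length, and was -0.10 with the neighbours' median within 1 Mb taken off. NPAP1 was higher, with 19, 14 and 21 counts in WT and 41, 26 and 56 in ARID1A-KO samples and a log2 fold change of 1.05 (adjusted p = 0.0161), a call lost when replicate 3 of WT (adjusted p = 0.0507) or of ARID1A-KO (adjusted p = 0.0509) was left out.

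ATP10A, a phospholipid flippase gene of the same cluster, went the other way. It had 69, 60 and 154 counts in WT and 1, 1 and 0 in ARID1A-KO samples. The summed CPM ratio of WT to ARID1A-KO was 152, with a counting interval from 41.8 to 1265 that covers counting error only, and the adjusted p in edgeR was 0.000168. ATP10A could pass the filter only through the WT samples, in which it is high, and drops out where 10 counts are required in every sample. Within 1 Mb of it, 6 other tested genes had log2 fold changes with a median of -0.13, none of them higher or lower, a window examined after the value was seen.

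**Figure D3:**
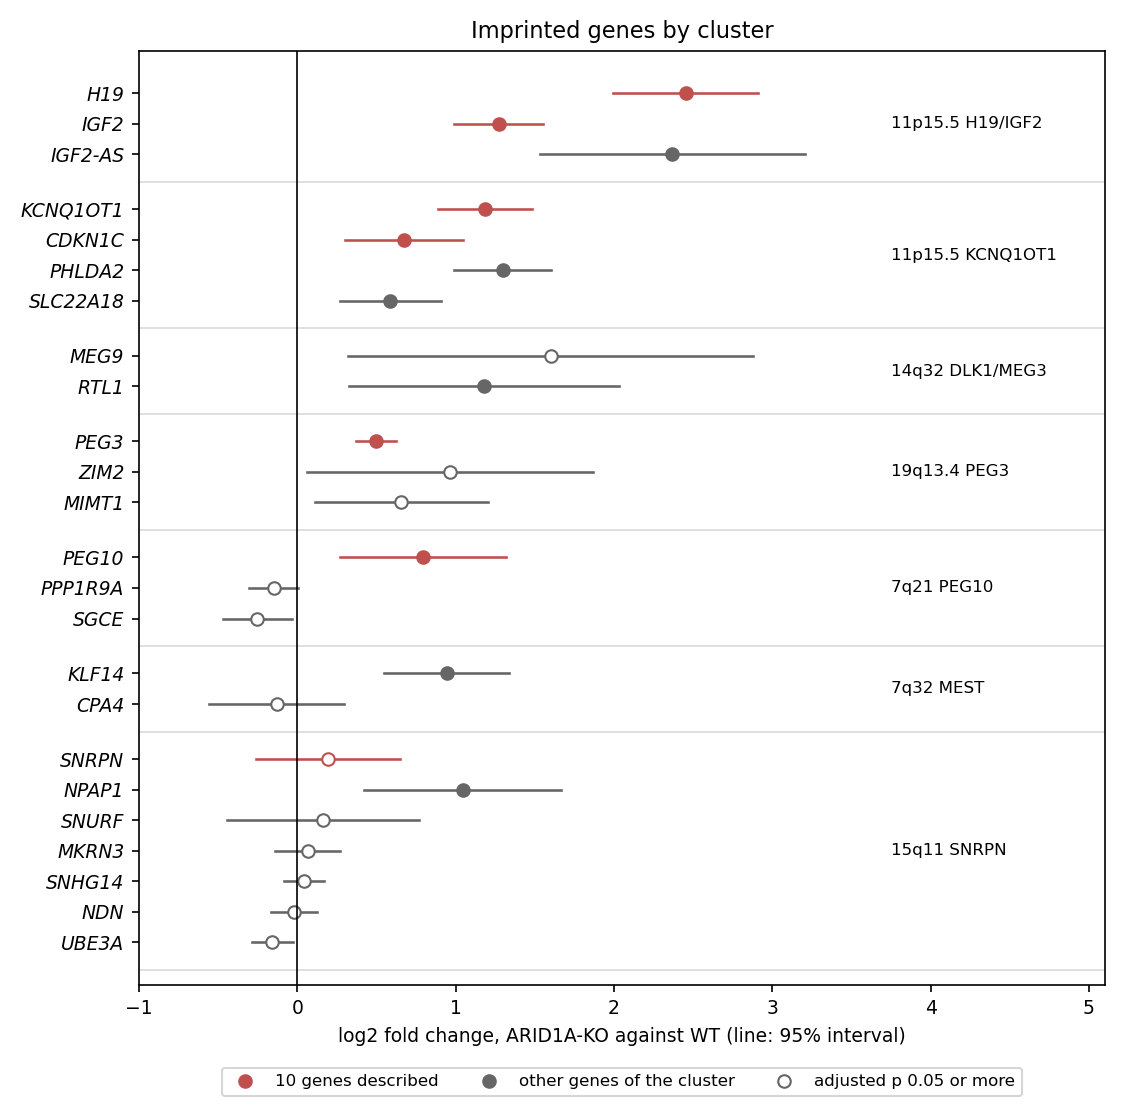
Log2 fold changes with 95% intervals of the tested imprinted genes, grouped by cluster, with the 10 described genes in red, other genes of their clusters in grey and open circles where the adjusted p was 0.05 or more. ATP10A, with 2 counts in all in ARID1A-KO cells, is left out to keep the scale; the 11p15.5 genes all lie right of 0, whereas most genes of 15q11 lie near it.

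MEST, MEG3 and DLK1 had too few counts for a test in either genotype. MEST, a gene of the hydrolase fold family (ENSG00000106484.10, plus strand of chromosome 7, 130126012 to 130146133), had 1, 0 and 0 counts in WT and 2, 1 and 9 in ARID1A-KO samples. The ratio of its summed CPM was 11.1, with a counting interval from 1.65 to 476 that covers counting error only. It rests on 1 count in WT, under the floor of 3 counts, and 9 of the 12 counts in ARID1A-KO cells came from replicate 5. On the opposite strand, COPG2 overlaps the end of MEST and an entry named hsa-mir-335 lies inside it. This entry had 6, 5 and 1 counts in WT and 3, 1 and 9 in ARID1A-KO samples. MEST had 3 to 12 forward-strand counts per sample, which in each sample was more than its reverse-stranded counts. Reads from the other strand in its counts were not tested.

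MEG3, a long noncoding RNA with growth-restraining activity (ENSG00000214548.10, plus strand of chromosome 14, 101245747 to 101327368), had 1, 0 and 0 counts in WT and 0, 1 and 2 in ARID1A-KO samples. DLK1, a noncanonical Notch ligand whose start site lies 53.705 kb away (ENSG00000185559.9, plus strand, 101192042 to 101201539), had 0, 0 and 0 in WT and 1, 0 and 1 in ARID1A-KO samples. A total of 3 counts over a group corresponds to 0.0153 CPM in WT and 0.0142 CPM in ARID1A-KO cells, and both genes were at or under this floor. Whether they differ between the genotypes was not detectable at this depth.

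Neighbours of MEG3 and DLK1 were low as well. RTL1, a retrotransposon-derived gene of this domain, had 16, 41 and 13 counts in WT and 68, 47 and 50 in ARID1A-KO samples, a log2 fold change of 1.18 with 0.0364 as adjusted p in edgeR. The adjusted p rose to 0.124 without WT replicate 3, 0.117 without WT replicate 5 and, of the ARID1A-KO samples, to 0.118 without replicate 3 and 0.0895 without replicate 4. MEG9, a noncoding RNA of the same domain, had 1.60 (adjusted p = 0.0531), passing the test in 6 of 15 alternatives, and MEG8 and DIO3 had at most 2 counts in a sample. Next to MEST, KLF14, a transcription factor gene, rose from 0.66 to 1.27 CPM with a log2 fold change of 0.94 (adjusted p = 0.00279), and CPA4, a carboxypeptidase gene, had -0.13 (adjusted p = 0.631), with WT samples spread from 482 to 928 CPM. Leaving out WT replicate 4, the lowest of them, gave -0.36 (edgeR adjusted p = 0.0145). Leaving out WT replicate 3, the highest, gave 0.07 (adjusted p = 0.802). The value for CPA4 thus depended on which WT samples were in the fit.

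Levels of different genes were compared in TPM, which divides by gene length. PEG3 was highest in both genotypes, at 34.2 ± 0.76 TPM in WT and 48.1 ± 0.51 TPM in ARID1A-KO cells, and its mean over all 6 samples was at percentile 80.4 of the tested genes. IGF2 came next, with 12.1 ± 2.4 and 29.0 ± 1.6 TPM, and H19 after it, with 3.79 ± 1.1 and 20.6 ± 3.9. CDKN1C had 1.77, PEG10 1.63 and SNRPN 1.31 TPM in WT. The samples of PEG10 overlapped those of both other genes, whereas the lowest sample of CDKN1C (1.60 TPM) lay just above the highest of SNRPN (1.56 TPM). In ARID1A-KO cells, CDKN1C and PEG10 had 2.82 TPM each and SNRPN 1.49. KCNQ1OT1, listed with a single exon of 91667 bases, had 0.216 and 0.489 TPM, lowest of the 7 tested genes on this scale, although more reads fell on it than on CDKN1C, PEG10 or SNRPN. CDKN1C and PEG10 did not differ beyond their spread in either genotype.

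A wider list of 51 other imprinted genes, written from general knowledge, was examined beside the 10. Of these, 46 were found in the files and 36 tested, 11 of them higher (30.6%, against 17.8% of all tested genes) and 6 lower (16.7%, against 18.4%). IGF2-AS, MEG9, ZIM2 and ATP10A are among the 36, although each could pass the filter only with the genotype in which it is high. With 10 counts required in every sample, 30 were tested, 9 higher and 6 lower. The median log2 fold change of the 36 was 0.12. In the clusters of the 10 genes, 18 of the 36 were tested, 6 higher and 1 lower. Outside these clusters 18 were tested, 5 higher and 5 lower, with a median of -0.05.

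Outside the clusters, changes of several-fold went in both directions. FAM50B, a retrogene on chromosome 6, rose from 3.32 to 15.47 CPM with a log2 fold change of 2.22 (edgeR adjusted p = 8.23e-06). KCNK9, a potassium channel gene, had 1.68, and DDC, which encodes the decarboxylase that makes dopamine, had 1.43. WT1-AS had 0.51 and INPP5F, a phosphoinositide phosphatase gene, 0.47, although INPP5F had 0.05 (adjusted p = 0.662) with the neighbours' median within 1 Mb taken off. GPR1, a chemerin receptor gene, fell from 2.83 to 0.29 CPM with a log2 fold change of -3.24 (adjusted p = 0.000134). NAP1L5 had -0.63, RB1, the retinoblastoma tumour suppressor gene, -0.42, GNAS-AS1 -0.42 and ZNF331 -0.27. The call of GNAS-AS1 was lost whichever sample was left out, with adjusted p values from 0.0506 to 0.0948. That of ZNF331 was lost without WT replicate 3 (adjusted p = 0.0816), and without replicate 3 (0.0958) or 4 (0.112) of ARID1A-KO.

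**Figure D4:**
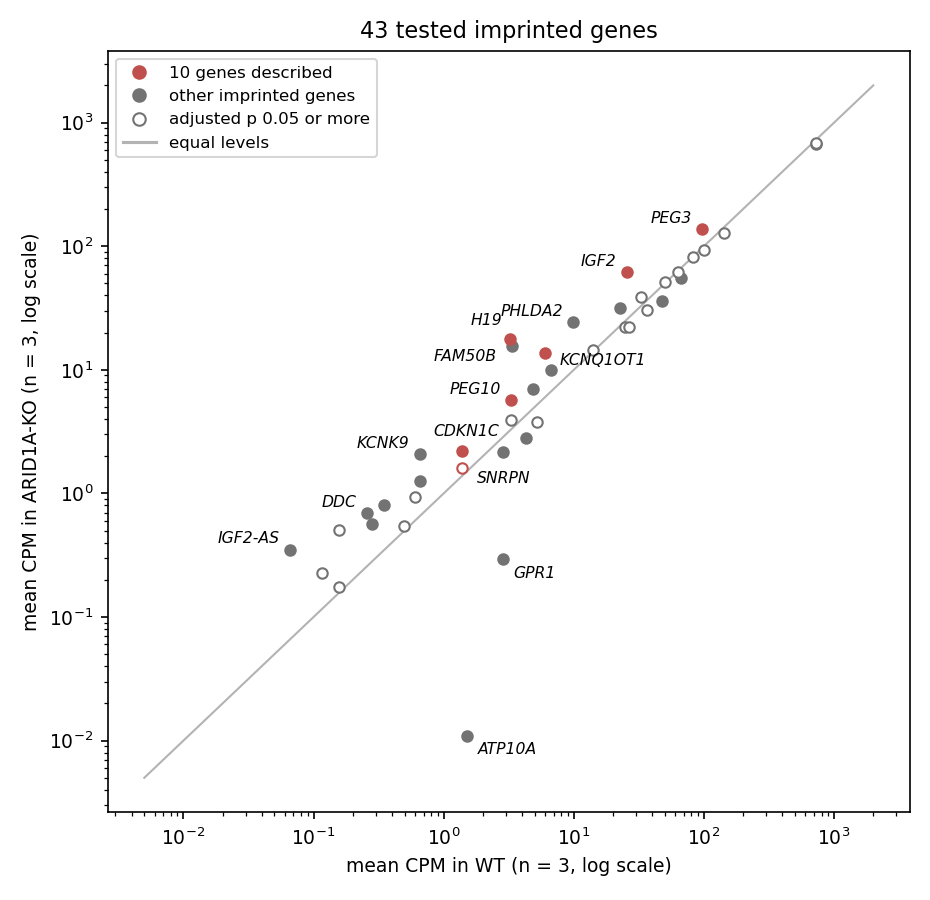
Mean CPM of the 43 tested imprinted genes in WT (x axis) and ARID1A-KO cells (y axis), n = 3 each, both on log scales, with the 10 described genes in red, other imprinted genes in grey, open circles where the adjusted p was 0.05 or more and a line of equal levels. H19 and FAM50B stand above the line at similar levels, and GPR1 and ATP10A below it, ATP10A at 2 counts in all over the ARID1A-KO samples.

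Genes that maintain imprints were called about as often as genes at large. Of 12 listed, 9 were tested, 1 was higher and 2 were lower, together 33.3% against 36.2% of all tested genes, with a median log2 fold change of -0.08. DNMT1, the maintenance DNA methyltransferase, was at 363 CPM in WT and at 270 CPM in ARID1A-KO cells (log2 fold change -0.43, edgeR adjusted p = 0.000906), and UHRF1, which recruits DNMT1 to replicating DNA, had 250 and 168 CPM (-0.57, adjusted p = 0.000441). For DNMT1 the change was -0.10 (adjusted p = 0.255) with the neighbours' median within 1 Mb taken off, and for UHRF1 it was -0.36 (adjusted p = 0.00605). CTCF, which binds the H19 control region, had 111 and 128 CPM (0.20, adjusted p = 0.0405), but its call was lost in 7 of 16 alternatives and its sign turned, to -0.34 and -0.35, with either neighbours' median taken off. Leaving out WT replicate 4 gave CTCF an adjusted p of 0.117 and leaving out WT replicate 5 one of 0.114. Of the ARID1A-KO samples, leaving out replicate 3 gave 0.0953, replicate 4 0.0644 and replicate 5 0.0906.

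The other maintenance genes were not called. ZNF445, a zinc finger protein that protects imprints, had -0.16, its cofactor TRIM28 -0.02 and the histone methyltransferase SETDB1 -0.08. The de novo methyltransferases DNMT3A and DNMT3B had 0.13 and 0.07, and the chromatin protein SMCHD1 -0.12. ZFP57, DNMT3L and DPPA3, which act in germ cells and the early embryo, had 0 or 1 counts in every sample.

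Receptors and RNA-binding proteins that act on IGF2 completed the lists. Of 6 genes, all tested, 1 was higher and 3 were lower, where 17.8% of all tested genes were higher and 18.4% lower. IGF1R, the receptor through which IGF2 signals, had -0.05 (95% interval -0.31 to 0.21) and INSR, the insulin receptor, 0.08 (interval -0.19 to 0.36), neither called. IGF2R, which takes IGF2 up for degradation, was at 392 CPM in WT and at 188 CPM in ARID1A-KO cells (log2 fold change -1.06, edgeR adjusted p = 2.82e-06). Its neighbourhood on chromosome 6 moved with it, since 41 tested genes within 5 Mb, examined after the value was seen, had a median of -1.05, and 33 of them were lower. With the median of its neighbours taken off, IGF2R had -0.02 (adjusted p = 0.837) for 5 Mb and 0.19 (adjusted p = 0.0267) for 1 Mb. IGF2BP1, a protein that binds IGF2 mRNA, was higher (0.72, adjusted p = 0.00272), whereas its relatives IGF2BP2 (-0.48, adjusted p = 0.0141) and IGF2BP3 (-0.69, adjusted p = 0.000438) were lower. IGF2BP2 had -0.25 (adjusted p = 0.146) with the neighbours' median within 1 Mb taken off.

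Across 16 alternatives in counting, scaling, filtering, tool, samples and offsets, H19, IGF2 and PEG3 were called higher each time. The log2 fold change of H19 stayed between 1.72 and 2.69, that of IGF2 between 0.59 and 1.45 and that of PEG3 between 0.32 and 0.62. KCNQ1OT1 was called in 15, PEG10 in 14 and CDKN1C in 13 of them. SNRPN, between 0.01 and 0.32, was called in none. At a stricter edgeR adjusted p under 0.01, not among these 16, 4 of the 10 genes were called. PEG10 (0.025) and CDKN1C (0.011) then lost their calls.

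**Figure D5:**
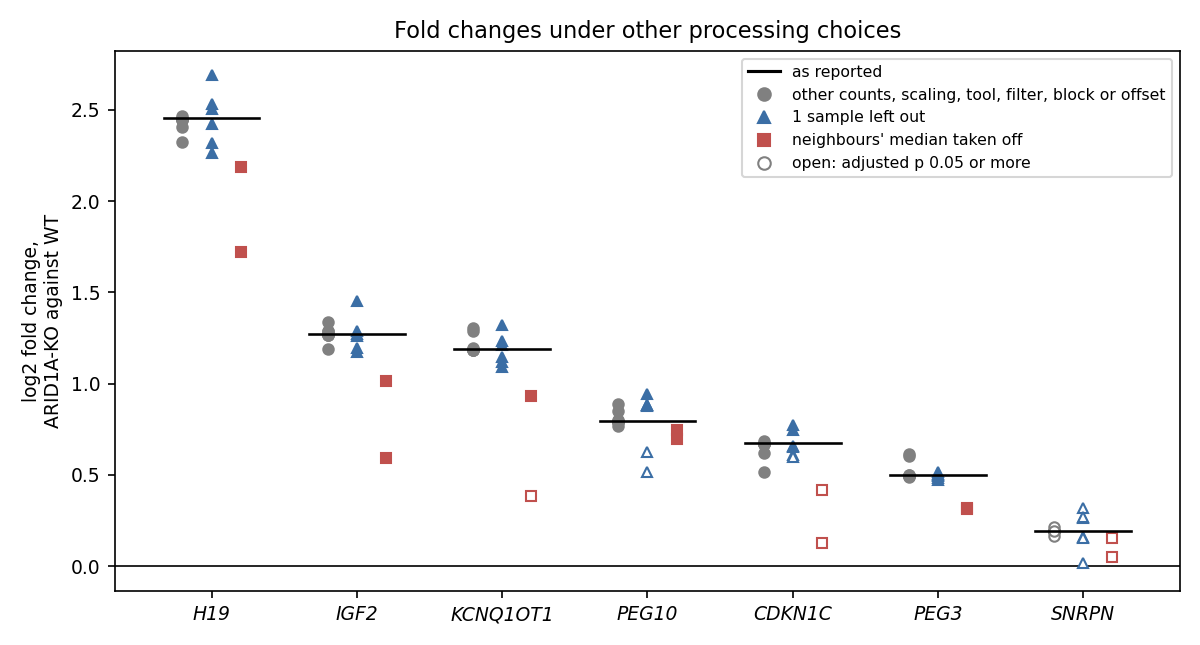
Log2 fold changes of the 7 tested genes as reported (line) and under 16 alternatives, with grey circles for other counts, scaling, tools, filters, the replicate block or offsets on length and GC content, blue triangles for 1 sample left out, red squares for the neighbours' median taken off and open symbols where the adjusted p was 0.05 or more. The neighbours' median moved the 11p15.5 genes most, H19 to 1.72 and CDKN1C to 0.12.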

How the data were processed

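RNA-seq counts of 3 WT and 3 ARID1A-KO samples were grouped by the genotype in the sample labels. Libraries were made with a stranded total RNA kit per the protocol, although the labels give polyA RNA. Reads were aligned to GRCh37 with STAR, and the authors deposited raw featureCounts counts of each gene, not normalized, beside TPM values. Reverse-stranded counts were used, since forward-strand counts came to 5.83% to 6.15% of them. No pair of samples agreed within sampling noise.

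Genes with low counts were dropped by filterByExpr. After TMM scaling, genotypes were compared in 1 fit of the 6 samples, without covariates (edgeR 4.0.16 under R 4.3.3, quasi-likelihood test, Benjamini-Hochberg adjustment over all tested genes). The common biological coefficient of variation was 0.111. Fits were tested on simulated data. The genes and lists were chosen with earlier results of these data known. Named genes are ARID1A, the 10 genes, tested imprinted genes of their clusters, the 10 other imprinted genes with the largest called changes, maintenance genes and IGF2 partners. PECAM1, COPG2IT1, PEG3-AS1, HYMAI, MCTS2P and PEG13 had no row of that name. Alternatives were unstranded counts, RLE, DESeq2 1.42.0, no filter, a minimum of 10 counts per sample, the replicate block, loess offsets (span 0.3) on length and GC content, omission of each sample, a stricter adjusted p (0.01) and neighbours' medians within 5 Mb and 1 Mb.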

Additional observations from a re-analysis of the deposited data

Results flagged for a closer look

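Forward-strand counts over IGF2, which entered no comparison of IGF2 other than the alternative with unstranded counts, did not overlap between the genotypes and were higher in ARID1A-KO cells. Scaled to library size they came to 1.58 ± 0.44 CPM in WT cells and to 4.55 ± 0.46 CPM in ARID1A-KO cells (SD over 3 samples), with 91, 91 and 121 counts in WT and 278, 275 and 402 in ARID1A-KO samples. They amounted to 5.81% to 6.55% of the reverse-stranded counts of IGF2 in WT and 6.75% to 8.05% in ARID1A-KO samples. Over whole libraries this share was 5.83% to 6.15%. That total is no background level for IGF2, since the share varied widely between genes. Among the other imprinted genes it was at most 0.164% for H19 and 0.123% for PEG3, up to 10.9% for CDKN1C and 12.3% to 16.6% for SNHG14. Forward-strand counts exceeded the reverse-stranded ones in every sample for MEST, ZIM2, SLC22A18AS and NNAT. IGF2-AS lies on that strand and had far fewer counts under its own entry, 7, 3 and 3 in WT and 24, 19 and 31 in ARID1A-KO samples. Its part in this signal was not tested.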

How the results depend on the processing

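Of 795 values of named genes under the alternatives, 706 kept their direction and side of the threshold, 43 lost the call, 27 gained one and 19 turned direction. At an adjusted p under 0.01, 4414 genes were differentially expressed. With the neighbours' median within 5 Mb taken off, 2 IGF2 partner genes were called, and with that within 1 Mb, 5 imprint maintenance genes, all lower. Of the 10 imprinted genes, 4 to 6 were called under every alternative. With single samples left out, values that turned ran from -0.056 to 0.40 for SNURF, from -0.064 to 0.022 for NDN, from -0.011 to 0.12 for MKRN3, from -0.36 to 0.070 for CPA4, from -0.061 to 0.010 for TRIM28 and from -0.17 to 0.043 for IGF1R. The offset on exonic length turned PPP1R9A to 0.012, SMCHD1 to 0.058 and IGF1R to 0.15. The neighbours' median within 5 Mb turned DNMT3B to -0.17, CTCF to -0.35 and IGF1R to 0.092, and that within 1 Mb turned SNHG14 to -0.10, CPA4 to 0.018, DNMT3B to -0.38, CTCF to -0.34 and IGF2R to 0.19. The cause was not tested. The offset on GC content and the counts with neighbours' medians were chosen after seeing the data.

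With the replicate number as a block, 7477 genes were differentially expressed, and 6 of the 10 imprinted genes were called. Whether the numbers pair the samples could not be decided. Deviations of same-numbered samples from their group means correlated at -0.244, 0.49 and 0.322. WT replicates 4 and 5 correlated best with their own numbers, although replicate 4 did so almost equally with ARID1A-KO replicate 3 (0.486). WT replicate 3 correlated best with ARID1A-KO replicate 5 (0.405). With 3 samples in a group, these deviations depend on each other, so the correlations cannot settle pairing. Depth limits MEST, MEG3 and DLK1, for which the filter left no test.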
